A study of Mus musculus with 6 samples.

Results

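The tectorial membrane genes described here are 6 genes for noncollagenous proteins of that membrane: Tecta, Tectb, Otog, Otogl, Otoa and Ceacam16. They were taken by gene symbol from the 24411 gene symbols counted in each library. The choice used the proteins they encode and, for Ceacam16, its position among the genes with the highest difference between the groups, so the set was in part chosen by the Kir2.1-OE against control values, and the differences between the groups for these 6 genes are given as a description, without a test.

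RNA came from the microdissected sensory epithelium of the mouse cochlea at postnatal day 9 (P9), before the onset of hearing. Kir2.1-OE mice carried 1 copy of Otof rtTA and 1 copy of tet-O Kir2.1 on a C57BL/6N background, so that doxycycline (DOX) switches on the potassium channel Kir2.1 under the Otof promoter, which is active mainly in the inner hair cells (IHCs). Littermate controls carried Otof rtTA without the Kir2.1 transgene. DOX (0.5 mg/ml) reached the pups of both groups by way of the mothers, whose water held it from conception and through nursing. Thus rtTA and DOX were common to all libraries. Each group had 3 pools, each of 8 cochleae from 4 mice, and each pool gave 1 poly(A) RNA library. The libraries held the RNA of the whole dissected tissue, and IHCs are a small part of it; in such bulk samples a smaller number of cells of a type and less RNA per cell cannot be told apart.

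The tectorial membrane is the acellular gel that lies over the hair bundles of the cochlea and couples sound-driven motion to them. It is built of collagen fibrils set in a striated-sheet matrix of noncollagenous glycoproteins, which are made mainly by the supporting cells of the greater epithelial ridge and, at the inner edge, by the interdental cells of the spiral limbus. Hair cells are not its main source, and much of its matrix is laid down before and shortly after birth in mice.

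The libraries held between 35430940 and 41205047 assigned reads, and all 6 genes passed the filter on low counts that left 15303 genes for testing. Kcnj2, which encodes Kir2.1, had 3213 ± 872 normalized counts in Kir2.1-OE and 229.9 ± 5.16 in controls (mean ± SD, n = 3 per group), with no overlap. A normalized count is the estimated read count of a gene divided by the relative effective size of its library. Control replicate 1 stood furthest apart in 2 marker lists, cartilage and bone and erythrocytes. It was also the lowest library for the summed cochlear fibrocyte markers (176516, against 225186 to 300259 in the others) and glia markers (203283, against 246926 to 365967). For the stria vascularis markers it was the highest (1423, against 1229 and 1247 in the other controls and 870.4 to 902.6 in Kir2.1-OE). Its summed cartilage and bone markers (9 of 10 listed genes were in the files) were 34429 normalized counts, against 88371 and 123875 in the other controls and 116573 to 129906 in Kir2.1-OE, a sum that was mostly the bone gene Ibsp (26529 in control replicate 1), and its 3 erythrocyte markers summed to 31054, against 10987 and 12958 in the other controls and 7165 to 8772 in Kir2.1-OE. Markers of the labelled tissue were present: all 13 supporting cell and 9 hair cell markers passed the filter and none was at 0. Markers of other cells were present too. The glia sums were 275248 to 365967 in Kir2.1-OE and 203283 to 264304 in controls, and the spiral ganglion neuron sums 21807 to 45785 and 13117 to 18656. Neither overlapped between the groups. The stria vascularis and erythrocyte sums given above did not overlap either, and both were lower in Kir2.1-OE. The fibrocyte sums overlapped, at 225186 to 299507 and 176516 to 300259.

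Positions are on mm10 from the GENCODE vM21 annotation. Tecta (ENSMUSG00000037705.13) covers chr9:42329619-42399929 on the minus strand, with 24 exons in its longest transcript of 7338 nt. Tectb (ENSMUSG00000024979.13) covers chr19:55180733-55196313 on the plus strand, with 10 exons and 2725 nt. Both tectorins are secreted glycoproteins with a zona pellucida domain, the module through which they polymerise into the striated-sheet matrix. The otogelin genes have the longest transcripts of the group: Otog (ENSMUSG00000009487.10, chr7:46240987-46311434, plus strand) has 56 exons and 10043 nt, and Otogl (ENSMUSG00000091455.4, chr10:107760531-107912134, minus strand) has 58 exons and 8763 nt. They encode otogelin and otogelin-like, large proteins related to mucins and von Willebrand factor. Otoa (ENSMUSG00000034990.15, chr7:121081650-121163097, plus strand) encodes otoancorin, which anchors the membrane to the spiral limbus; its longest annotated transcript, of 4347 nt, has a single exon. Ceacam16 (ENSMUSG00000014686.8, chr7:19852097-19861299, minus strand, 6 exons, 1635 nt) encodes a secreted member of the carcinoembryonic antigen family that binds α-tectorin and is needed for the striated-sheet matrix.

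Exons of another protein-coding gene, Gm19345, overlap those of Ceacam16 on the opposite strand. No strand setting of the counting was given in the sources used here, so reads from these genes may not be told apart. Gm19345 had 254.8 ± 30.1 normalized counts in Kir2.1-OE and 225.8 ± 15.2 in controls, and the log2 difference was 0.18 (edgeR quasi-likelihood test, Benjamini-Hochberg adjusted p = 0.314). Exons of Gm47629 overlap those of Tecta on the opposite strand, and the microRNA gene Mir6715 lies within Tectb and was at 0 in all 6 libraries.

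Upstream sequence was found in the RefSeq promoter table (GRCm38.p6) for 4 of the 6 genes: Tecta, Tectb, Otog and Otoa. The 250 bases before an annotated start of Tecta (chr9:42399948-42400197, minus strand), Tectb (chr19:55180476-55180725, plus strand) and Otog (chr7:46240737-46240986, plus strand) are shown because these genes carried the lower and the higher values described next and their windows held a motif searched. Capitals mark matches, on either strand, to 3 motifs. ACAAAG is a letter core of sites bound by SOX factors, the closely related ACAATG is another such core, and GFI1 sites are represented by AATCAC.
Tecta: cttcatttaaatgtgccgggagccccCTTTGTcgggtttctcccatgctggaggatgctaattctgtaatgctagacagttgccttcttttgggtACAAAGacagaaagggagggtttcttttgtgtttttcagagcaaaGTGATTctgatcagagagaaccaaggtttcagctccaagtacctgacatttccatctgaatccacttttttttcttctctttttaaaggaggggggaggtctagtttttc
Tectb: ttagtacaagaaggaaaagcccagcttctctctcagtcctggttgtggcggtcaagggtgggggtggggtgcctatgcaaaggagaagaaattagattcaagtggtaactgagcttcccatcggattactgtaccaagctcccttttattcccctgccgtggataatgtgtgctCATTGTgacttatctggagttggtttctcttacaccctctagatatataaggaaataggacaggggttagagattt
Otog: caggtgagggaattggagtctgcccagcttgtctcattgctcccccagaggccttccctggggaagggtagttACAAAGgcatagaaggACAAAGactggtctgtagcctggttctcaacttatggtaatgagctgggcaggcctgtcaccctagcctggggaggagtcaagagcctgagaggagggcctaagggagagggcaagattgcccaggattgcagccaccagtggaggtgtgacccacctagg
ACAAAG was matched at bases -224 (minus strand) and -155 of the Tecta window and at -177 and -161 of the Otog window, counted from the annotated start. AATCAC was matched at -110 on the minus strand of Tecta, and ACAATG at -76 on the minus strand of Tectb. None of the motif matches overlapped another. Among 32851 RefSeq windows of the same length (250 bases before to 50 after the start), 18.7% held the first of these motifs, 12.6% held the second SOX core, ACAATG, and 10.4% held the GFI1 core. TATAAA, the TATA box letters, was found in none of the windows of these 4 genes and in 13.6% of all windows. The other annotated Tecta window and the Otoa window held none of the 4 motifs.

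The differences between the groups did not run in 1 direction across the 6 genes. Ceacam16, Otoa and Otog were higher in every Kir2.1-OE library than in every control, Tectb was lower in every Kir2.1-OE library, and Tecta and Otogl overlapped between the groups. Over all genes tested, 31.6% had every Kir2.1-OE library above every control and 29.9% had every one below, so 3 and 1 of 6 genes stand beside about 2 of 6 in each direction. The 6 log2 fold changes, Kir2.1-OE over control, had a median of 0.57, beside 0.01 for all genes tested, but it turned to -0.17 when a trend of each library on transcript length and GC content was entered in the fit (the length and GC offsets).

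**Figure D1:**
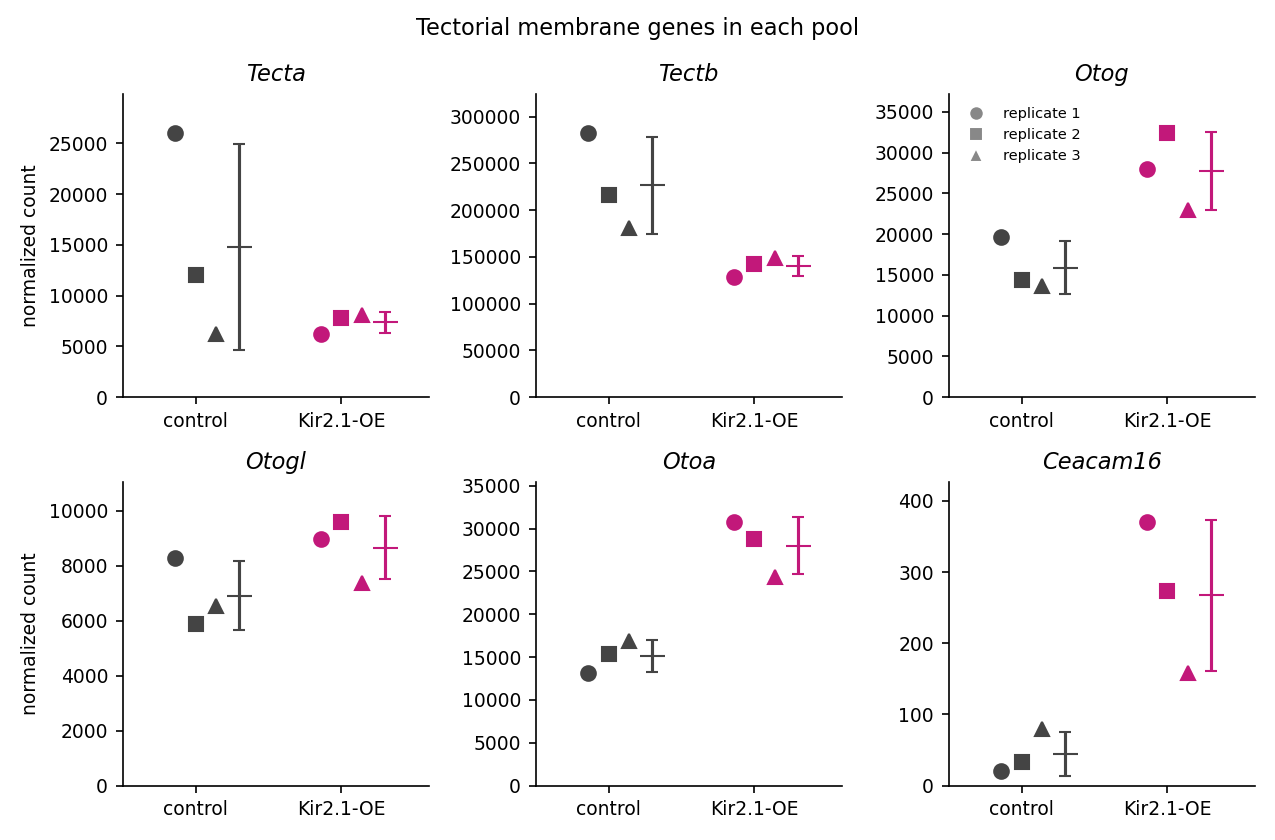
Normalized counts of the 6 tectorial membrane genes in each library (vertical axes start at 0 and differ between panels; points are pools, bars the mean and SD of 3 pools). Ceacam16, Otoa and Otog have all Kir2.1-OE points above the controls, Tectb has all below, and the control points of Tecta run from 6264 to 25995.

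Tecta encodes α-tectorin, the main zona pellucida domain protein of the striated-sheet matrix. It had 6197, 7758 and 8110 normalized counts in Kir2.1-OE replicates 1, 2 and 3 and 25995, 12005 and 6264 in control replicates 1, 2 and 3. The third control lay inside the range of the Kir2.1-OE pools, and the first control stood far above all other libraries. The means were 7355 ± 1018 and 14755 ± 10149 (SD, n = 3), a log2 fold change of -1.004 with a standard error of 0.40. The difference was -0.31 without control replicate 1 and -1.37 without control replicate 3. The control pools spanned a 4.15-fold range, or 2.05 on the log2 scale, wider than the control range of 99.7% of the 13644 tested genes with a mean of at least 50 normalized counts. The Kir2.1-OE pools spanned 0.39 on that scale.

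Tectb encodes β-tectorin, the partner of α-tectorin in the sheets. It had 128742, 142704 and 149305 normalized counts in the Kir2.1-OE pools and 282462, 216282 and 180813 in the controls. All Kir2.1-OE libraries lay below all controls, and control replicate 1 was again the highest. The means were 140250 ± 10499 and 226519 ± 51592, a log2 fold change of -0.69 with a standard error of 0.15, or -0.50 without control replicate 1. Tectb alone took 0.347% to 0.398% of the assigned reads in Kir2.1-OE and 0.479% to 0.756% in controls.

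The supporting cells and greater epithelial ridge, where both tectorins are made, were read by 13 marker genes, which did not move in 1 direction. Their log2 fold changes had a median of -0.07, with 1 (Prox1, 1.13) called higher, 1 (Hes5, -1.42) lower and 11 not called. Epyc, S100a1 and Lfng lay below the controls in every Kir2.1-OE library, at -0.34, -0.46 and -0.44, whereas Lgr5 and Prox1 lay above in every one, Lgr5 at 0.39. The groups overlapped for Hes5, Sox2 (-0.35), Slc1a3 (-0.20), Cdkn1b (-0.07), Fgfr3 (0.32), Jag1 (0.21), Gjb6 (0.08) and Gjb2 (0.04). The summed level was 237251 to 255990 normalized counts in Kir2.1-OE and 287218 to 308054 in controls, but most of that sum is Epyc, with 128621 ± 3458 and 162545 ± 3064, and S100a1, with 30690 ± 3286 and 42357 ± 4657. Scaled to the sum of these 13 markers instead of the whole library, the log2 fold change was -0.45 for Tectb and -0.78 for Tecta, on a scale where the median of all genes tested moved from 0.01 to 0.25. Whether these markers, or the cartilage, erythrocyte, fibrocyte, glia and stria markers of control replicate 1, have a part in the tectorin values was not tested.

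Otog, for otogelin, had 27975, 32402 and 22919 normalized counts in the Kir2.1-OE pools and 19594, 14405 and 13656 in the controls. All Kir2.1-OE pools lay above all controls, with the third Kir2.1-OE pool nearest to the first control. The means were 27765 ± 4745 and 15885 ± 3234, a log2 fold change of 0.81 with a standard error of 0.16. With the length and GC offsets the direction turned, to -0.23. Without them, 0.81 was also the median of all tested genes with a longest transcript of 8000 nt or more, the class of Otog.

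Otogl, for the otogelin-like protein, had 8983, 9599 and 7384 normalized counts in the Kir2.1-OE pools and 8293, 5865 and 6531 in the controls. The first control lay above the third Kir2.1-OE pool, so the groups overlapped. The means were 8655 ± 1143 and 6896 ± 1255, a log2 fold change of 0.33 with a standard error of 0.14, or -0.10 with the offsets.

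Otoa had 30806, 28815 and 24350 normalized counts in the Kir2.1-OE pools and 13092, 15374 and 16887 in the controls. The groups were well apart, and the first control, the highest control for both tectorins and both otogelins, was the lowest of all for Otoa. The means were 27990 ± 3306 and 15117 ± 1910, a 1.85-fold difference and a log2 fold change of 0.89 with a standard error of 0.12.

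Ceacam16 was the least abundant of the 6 genes and had the widest difference. It had 371.0, 273.2 and 158.7 normalized counts in the Kir2.1-OE pools and 20.05, 33.27 and 79.3 in the controls. Every Kir2.1-OE pool exceeded every control, although both groups were spread over a wide range. The means were 267.6 ± 106.2 and 44.2 ± 31.1, a 6.05-fold difference and a log2 fold change of 2.60 with a standard error of 0.46. This was the 8th highest of the 15303 genes tested, which is the value that chose it. The value was 2.25 without control replicate 1 and 3.30 without control replicate 3, since the third control carried most of the Ceacam16 counts of its group. The range among controls (3.96-fold) was wider than that of 99.7% of the 13644 genes, and the range among Kir2.1-OE pools (2.34-fold) wider than that of 98.6%.

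The pools within a group differed in the same order in some of these genes and in opposite order in others. In the controls, replicate 1 was highest for Tecta (1.06 above the group mean on the log2 scale), Tectb (0.34), Otog (0.32) and Otogl (0.28), and lowest for Otoa (-0.20) and Ceacam16 (-0.89). Control replicate 3 was lowest for Tecta (-0.997), Tectb (-0.30) and Otog (-0.20), and highest for Otoa (0.17) and Ceacam16 (1.07). In Kir2.1-OE, replicate 1 was lowest for Tecta (-0.24) and Tectb (-0.12) and highest for Otoa (0.15) and Ceacam16 (0.55), whereas replicate 3 was highest for Tecta (0.15) and Tectb (0.09) and lowest for Otoa (-0.19) and Ceacam16 (-0.67). The otogelins went with the tectorins in control replicate 1 but not in Kir2.1-OE, where replicate 3 was lowest for Otog (-0.26) and Otogl (-0.22). Within each group, a pool with more tectorin reads thus had fewer Otoa and Ceacam16 reads. With 3 pools per group and genes read from the same library, this is a description of 6 libraries.

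**Figure D2:**
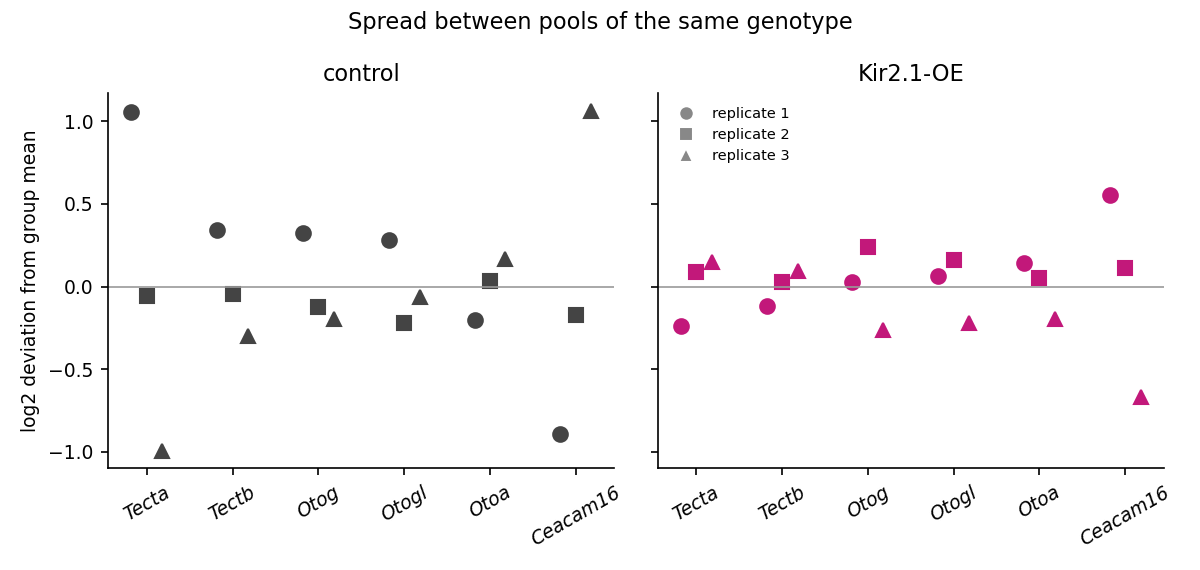
Log2 deviation of each pool from the mean of its own group for the 6 genes (1 panel per group; marker shapes are replicates 1 to 3; the line at 0 is the group mean). Control replicate 1 goes from 1.06 in Tecta to -0.89 in Ceacam16, and control replicate 3 from -0.997 to 1.07.

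Levels of different genes were compared per length, as normalized counts per kilobase of the longest annotated transcript. In controls the order was Tectb, with 83126 (66353 to 103656), Otoa, with 3478 (3012 to 3885), Tecta, with 2011 (854 to 3543), Otog, with 1582 (1360 to 1951), Otogl, with 787 (669 to 946), and Ceacam16, with 27.0 (12.3 to 48.5). The pools of Tecta overlapped those of Otoa, Otog and Otogl, whereas Tectb and Ceacam16 stood clear of the other genes. Tectb ranked 9th among the 15199 tested genes with an annotated length. In Kir2.1-OE the order was Tectb, with 51468 (47245 to 54791), Otoa, with 6439 (5602 to 7087), Otog, with 2765 (2282 to 3226), Tecta, with 1002 (845 to 1105), Otogl, with 988 (843 to 1095), and Ceacam16, with 163.7 (97.1 to 226.9). Otog stood above Tecta in every Kir2.1-OE pool, and Tecta and Otogl overlapped there.

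The longest Otoa transcript is a single exon, and with the longest protein-coding transcript its control level was 4007. With the median length of protein-coding transcripts, the control levels were 23676 for Otoa, 215016 for Tectb and 2336 for Otog. That placed Otog above Tecta, at 2051.

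**Figure D3:**
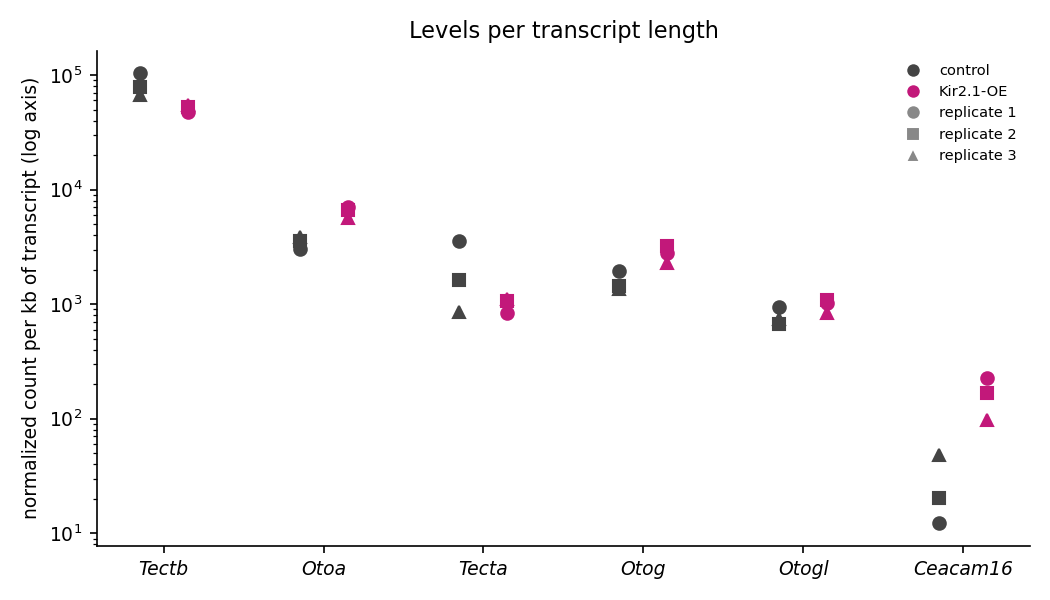
Normalized counts per kilobase of the longest annotated transcript for the 6 genes, on a log10 axis (points are pools, coloured by group, with a marker shape for each replicate number). Tectb lies at 47245 or above in all pools, Ceacam16 at 226.9 or below, and the other 4 genes between them.

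Set against the sum of the 6 genes per kilobase, Tectb made up 79.8%, 81.1% and 84.7% in the Kir2.1-OE pools and 91.6%, 91.6% and 90.6% in the controls. Otoa made up 11.97%, 10.3% and 8.66% in Kir2.1-OE and 2.66%, 4.08% and 5.30% in controls. Neither share overlapped between the groups. Ceacam16 made up 0.150% to 0.383% in Kir2.1-OE and 0.0108% to 0.0662% in controls.

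The ratio of Tectb to Tecta per kilobase was 55.9, 49.5 and 49.6 in the Kir2.1-OE pools and 29.3, 48.5 and 77.7 in the controls. The control ratios enclosed the Kir2.1-OE ratios, so the balance of the tectorins overlapped between the groups. The ratio of Otog to Otogl was 2.71 to 2.95 in Kir2.1-OE and 1.83 to 2.14 in controls, and that of Otoa to Tecta 5.07 to 8.39 and 0.850 to 4.55. Neither of these ratios overlapped between the groups, but the log2 fold changes of Otog and Otogl, 0.81 and 0.33, turned to -0.23 and -0.10 under the length and GC offsets, where Otog was no longer the higher of the pair.

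Transcript length moved with the difference between the groups across all genes. The median log2 fold change was -0.50 in the 656 genes with a longest transcript under 1000 nt, -0.30 in the 2504 genes of 1000 to 2000 nt, which include Ceacam16, -0.06 in the 6253 genes of 2000 to 4000 nt, which include Tectb, 0.29 in the 4902 genes of 4000 to 8000 nt, which include Tecta and Otoa, and 0.81 in the 884 genes of 8000 nt or more, which include Otog and Otogl. Of the 884 longest genes, 64.0% were called higher. Ceacam16 at 2.60 and Otoa at 0.89 lay above the median of their class, Otog at 0.81 lay at it, and Otogl at 0.33, Tectb at -0.69 and Tecta at -1.004 lay below it.

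**Figure D4:**
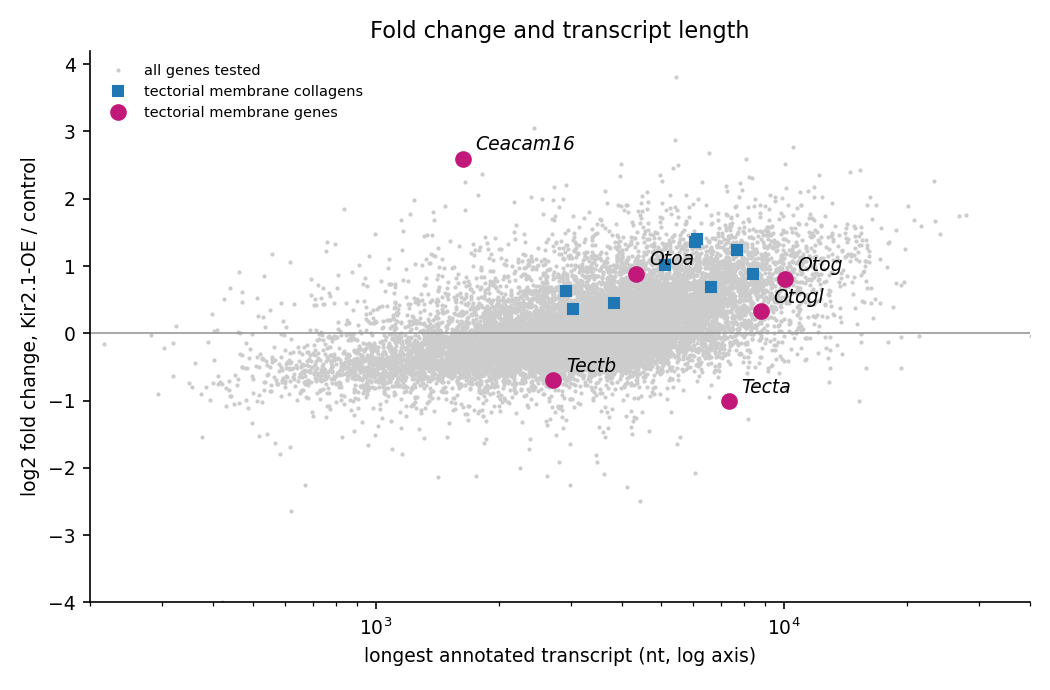
Log2 fold change (Kir2.1-OE over control) of the 15199 tested genes with an annotated length against the length of the longest transcript in nt, on a log10 axis (grey points; 6 genes lie outside the axes; blue squares are the 9 collagens, pink circles the 6 labelled tectorial membrane genes; the line marks 0). The cloud of genes climbs with length; Ceacam16 at 2.60 lies above it and Tecta at -1.004 below it.

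With each library's length and GC trend taken into the fit, the log2 fold change was 2.71 for Ceacam16, 0.79 for Otoa, -0.55 for Tectb and -1.64 for Tecta. Otog and Otogl turned to -0.23 and -0.10. The median of the 6 genes turned from 0.57 to -0.17. The direction of Otog and Otogl therefore depended on this offset, whereas that of the other 4 genes held in all 15 alternatives tried. All were refits of the same libraries, and Ceacam16 was chosen by its value in this contrast, so they give no independent support. Over those alternatives the log2 fold change ran from 2.25 to 3.30 for Ceacam16, from 0.79 to 1.13 for Otoa, from -0.83 to -0.45 for Tectb and from -1.64 to -0.31 for Tecta.

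**Figure D5:**
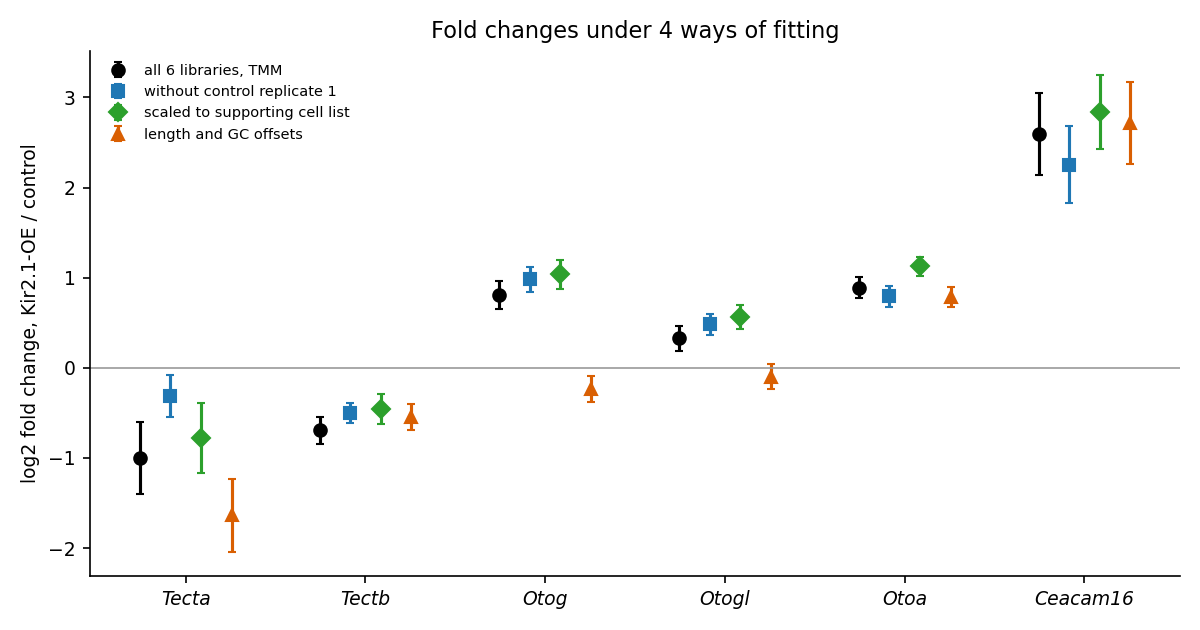
Log2 fold change (vertical axis, Kir2.1-OE over control) of each of the 6 genes as reported, without control replicate 1, scaled to the 13 supporting cell markers, and with length and GC offsets (bars are the standard error; the line marks 0). Otog and Otogl lie above 0 in the first 3 fits and at -0.23 and -0.10 with the offsets, and the other 4 genes stay on 1 side of 0 in all 4.

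The genes nearest to each member in pattern were found by the root mean square difference of their log2 profiles over the 6 libraries, each centred on its own mean, among 13643 genes. Otoa lay nearest to Prex1 (0.0441) and Adam11 (0.0469), and Otogl to Dnah2 (0.0461) and Efcab2 (0.0677). Otog lay nearest to Arid5b (0.0720) and Med12 (0.0773), and Cpa6 was the second nearest to Tectb (0.0749). Tecta had no gene closer than Mycbpap (0.206) and AW551984 (0.219), and Ceacam16 none closer than Ryr1 (0.476) and Slfn5 (0.595). This distance grows with a gene's own spread, and the pooled SD within groups was 0.74 for Tecta and 0.83 for Ceacam16 on the log2 scale, against 0.18 to 0.27 for the other 4 genes.

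The members were not each other's nearest genes. The distance was 0.415 between Tecta and Tectb, 0.251 between Otog and Otogl and 0.287 between Otoa and Otog. The nearest member to Ceacam16 was Otoa, at 1.07. The nearest member stood at rank 47 of 13643 genes for Tecta, 600 for Ceacam16, 748 for Otog, 2529 for Otoa, 3117 for Otogl and 6877 for Tectb.

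The collagen fibrils of the membrane are built from type II, V, IX and XI collagens, and all 9 genes of that list were tested. The study had named Col2a1, Col5a1, Col11a1, Col11a2 and the cartilage gene Acan, described below, from these same libraries, so their direction is not independent evidence. Called is used here for an adjusted p under 0.05 over all genes tested together with a fold change above 1.5. Of the tested genes, 15.5% passed as higher and 5.08% as lower (2365 and 778 genes, or 1897 and 1378 with upper quartile scaling). The study, using DESeq2 at the same thresholds, listed fewer genes in each direction. DESeq2 fitted here to the deposited counts called 2285 higher and 801 lower, and the reason for the study's shorter lists was not tested. Of the 9 collagens, 7 were called higher and none lower, with a median log2 fold change of 0.88. All 9 had every Kir2.1-OE library above every control, beside 31.6% of all genes tested. Most of the 9 have long transcripts, and of all tested genes of 4000 to 8000 nt, where 5 of the 9 lie, 26.3% were called higher. Col5a1 lies among the genes of 8000 nt or more, of which 64.0% were called higher. Col9a1, Col9a2 and Col9a3 lie among those of 2000 to 4000 nt, of which 6.69% were. Once the offsets for length and GC entered the fit, 2 collagens were called higher, Col5a3 and Col11a1, and the median was 0.34, with 0.34 for Col2a1, 0.51 for Col11a2 and -0.03 for Col5a1. Col2a1, the main fibril collagen, had 549573, 652926 and 520277 normalized counts in Kir2.1-OE and 256404, 312641 and 282630 in controls, with no overlap. It rose by 1.02 on the log2 scale (standard error 0.11, edgeR quasi-likelihood test, Benjamini-Hochberg adjusted p = 0.000209). Col5a3 had the highest value of the list, 993.8 ± 163.8 against 376.6 ± 85.5 normalized counts and a log2 fold change of 1.40 (adjusted p = 0.000289 in the same test). Col11a1 and Col11a2, chains of the type XI collagen that controls fibril thickness, rose by 1.24 and 1.36. Col9a3 and Col9a1, for type IX collagen on the fibril surface, had log2 fold changes of 0.37 and 0.45 and did not reach a fold change of 1.5. Collagen II, IX and XI genes are also expressed by cartilage. Acan, which encodes the cartilage proteoglycan aggrecan, had 3935, 4346 and 3200 normalized counts in Kir2.1-OE and 974.2, 1332 and 1656 in controls, and was called higher with a log2 fold change of 1.54 (adjusted p = 0.000235, edgeR quasi-likelihood test). Of the 7 tested cartilage and bone markers it was the 1 called; Chad, another cartilage gene, had every Kir2.1-OE library above every control (log2 fold change 0.45, not called), and Matn1 had every one below (-0.57, not called). The part of cartilage in the collagen values was not tested.

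The list of relatives in attachment and acellular gels had 5 of 6 genes tested, and none was called; with the length and GC offsets Strc was called lower. Strc encodes stereocilin, which is related to otoancorin and joins the outer hair cell bundles to the membrane. It had 2344 ± 427 normalized counts in Kir2.1-OE and 2349 ± 226 in controls, and a log2 difference of -0.0024, or -0.64 with the offsets. Otoa, its relative at the other attachment, had 0.89, or 0.79 with the offsets. Otol1 and Oc90, matrix proteins of the otoconia in the vestibular organs, had log2 fold changes of -0.09 and -0.27. Zpld1, a zona pellucida domain protein of the inner ear, had the lowest value, -0.33.

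Among the CEACAM relatives of Ceacam16, 2 of 6 passed the filter. Ceacam1, a cell adhesion receptor, had 426.6 ± 56.9 normalized counts in Kir2.1-OE and 214.8 ± 26.8 in controls and was called higher, with a log2 fold change of 0.99 (edgeR quasi-likelihood test, Benjamini-Hochberg adjusted p = 0.00065). Ceacam10 had -0.02 and was not called. Ceacam20 was at 0 in all libraries.

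Of the 8 relatives with a zona pellucida domain, 3 were tested and all 3 were called higher, beside 15.5% of all genes tested. With the length and GC offsets Umodl1 was the 1 still called, and Eng was not called without control replicate 1. Umodl1 had 14173, 11519 and 7528 normalized counts in Kir2.1-OE and 2933, 5520 and 5315 in controls, with no overlap. Its log2 fold change was 1.27, that of Tgfbr3, a co-receptor for transforming growth factor β, 0.97, and that of Eng, an endothelial co-receptor of the same family, 0.61. The tectorins, which carry the same domain, had values of the opposite sign. So did Zpld1, a protein with this domain kept in the attachment and gel list. Its value was -0.33, or -0.09 with the offsets, with every Kir2.1-OE library below every control, and it was not called. Of the 5 gel-forming mucin and von Willebrand factor relatives of otogelin, Vwf was the one tested, with 268.2 ± 35.8 against 129.6 ± 14.8 normalized counts, and was called higher with a log2 fold change of 1.05, or 0.15 and not called with the offsets.

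Over the 34 genes of these 5 lists, 20 were tested, 12 were called higher, 0 lower and 8 were not called, beside 15.5% and 5.08% of all genes tested. At an unadjusted p under 0.05, 14 were higher and 1 was lower, but the share of all genes at that level was not read. DESeq2 also called 12 and 0, beside 2285 and 801 of all genes. The 20 log2 fold changes of these lists had a median of 0.66. With the length and GC offsets 4 were called higher (Col5a3, Col11a1, Ceacam1 and Umodl1) and 1 lower (Strc, -0.64), beside 7.03% and 2.86% of all genes tested. Without control replicate 1, 9 were called higher, beside 2099 of all genes, and Col5a2, Col9a2 and Eng were no longer called.

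The nearest tested protein-coding gene on each side of the 6 genes was also read, by a rule chosen after the data were seen. Of these 12 genes, 5 were called higher and 0 lower, beside 15.5% and 5.08% of all genes tested. Their calls with the length and GC offsets were not read. Kcnc1, 85.1 kb from Otog, had a log2 fold change of 2.03, and Usp31, 478.9 kb from Otoa, had 0.99. Ptprq, 40.5 kb from Otogl, had 0.89, and Ppp1r12a, 250.1 kb on the other side, had 1.05. The study reported no significant change in the gene for PTPRQ from these same libraries. Bcl3, 29.3 kb from Ceacam16, had a log2 fold change of 0.75 and was called higher, and Pvr, 42.3 kb on the other side, had 0.32 and was not called. On the other sides, Ush1c, 2.48 kb from Otog, had -0.15, and Mettl9, 3.32 kb from Otoa, had -0.46, and neither was called.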

How the data were processed

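Reads of 3 Kir2.1-OE and 3 control libraries (paired-end, 150 nt) were mapped by the authors to mm10 with the nf-core RNA pipeline and assigned with Salmon; tool versions, annotation and strand setting were not given in the sources used here. The authors deposited expected counts from Salmon per gene symbol, not divided by length or library size; 6.95% of the estimates were not whole. Samples were grouped and numbered as labelled; the header in the file of control replicate 1 carries the number 4. Counts were rounded and fitted with edgeR 4.0.16 in R 4.3.3 (TMM factors 0.984 to 1.01, filterByExpr, genotype only, quasi-likelihood test, p-values adjusted by Benjamini-Hochberg). A call needed an adjusted p under 0.05 and more than a 1.5-fold difference. The script was tested on simulated data. Within-group deviations and profile distances used log2(normalized count + 0.5).

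GENCODE vM21 lengths and positions were matched to 23376 symbols directly and 670 by an older symbol, leaving 365 without. Offsets were a loess trend (span 0.4) on transcript length and GC content. No 2 libraries agreed within sampling noise (chi-square per degree of freedom 15.7 to 31.2). The smallest p an exact two-sided permutation test of 3 against 3 pools allows for 1 gene is 0.10. A count of 0 allows a share of up to 8.47e-06% of a library, for counting error only.

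The members and gene lists were chosen with earlier results of these data known. Named were the 6 members, Kcnj2, the 2 nearest genes in pattern (mean of at least 50 normalized counts), and in each related list the highest and lowest tested genes and those whose role is described; the nearest gene to Tectb is not reported here. DESeq2 1.42.0, other scalings, no low-count filter, a replicate block, offsets and left-out pools were the alternatives.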

Additional observations from a re-analysis of the deposited data

How the results depend on the processing

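Otog and Otogl turned in direction with the length and GC offsets, to -0.23 and -0.10 on the log2 scale, and with the replicate block added, to -0.23 and -0.092; the median of the 6 genes turned to -0.17 and -0.16. With these offsets, 1076 of all genes were called higher and 438 lower, or 839 and 376 with the block, and of the related genes 4 were higher and 1 lower, or 2 and 1 with the block. Upper quartile scaling gave 1378 genes called lower, against 1897 higher. Scaling to the supporting cell markers gave Otoa 1.13 and Otogl 0.56, with a median of 0.25 over all genes tested. Control levels per kilobase with the median coding length were 215016 for Tectb, 2336 for Otog and 23676 for Otoa, and 4007 for Otoa with the longest protein-coding transcript, an alternative chosen after seeing the data. The other 152 values kept their direction and moved by less than 1 pooled SD, or 1.5 times for counts; for Tecta and Ceacam16 that SD is wide (0.74 and 0.83), and Tecta ran from -1.64 to -0.31 and Ceacam16 from 2.25 to 3.30.

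Leaving out 1 pool at a time, 1878 to 2527 genes were called higher and 536 to 1074 lower, 9 to 12 of the related genes were higher and 0 lower, and the median of the 6 genes ran from 0.44 to 0.67. The replicate numbers did not pair the pools: same-numbered pools had correlations of -0.11, -0.23 and -0.21 over all genes, and no pool correlated best with its own number. The replicate block alone gave 2220 genes higher and 718 lower and -0.77 for Tecta, with no change of direction in the 6 genes. The depth limits Ceacam16 most, at 19.98 to 77.9 estimated reads in the controls.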
